A study of Homo sapiens with 9 samples.

Results

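Asporin (ASPN) and 9 relatives, decorin (DCN), biglycan (BGN), lumican (LUM), fibromodulin (FMOD), osteoglycin (OGN), PRELP, osteomodulin (OMD), ECM2 and podocan (PODN), were followed through RNA-Seq of prostate cancer xenografts. These 10 genes were chosen by symbol as the small leucine-rich proteoglycan family and its close relatives, with earlier results of these data known. All 10 were listed among the 16008 genes present in both count tables of the series. The xenografts were grown from PC3, an androgen-independent cell line derived from a bone metastasis of human prostate cancer, injected under the skin of male NSG mice, which lack T, B and NK cells but keep fibroblasts, vessels and myeloid cells. Mice received PBS as vehicle or 1 of 2 antibody-drug conjugates at 5 mg/kg once a week into the retro-orbital sinus. P-DXd (patritumab deruxtecan) binds HER3 and T-DXd (trastuzumab deruxtecan) binds HER2, and both carry the same topoisomerase I inhibitor payload. Every library thus came from the same line in the same host, with 3 libraries per group, each from an animal with its own code. The mice were 11 weeks old and treated for 5 cycles by the series record, and 10 weeks old and treated for 4 cycles by the methods. For all 6 treated libraries the sample title and the treatment field name opposite conjugates, so the groups keep their titles (P-DXd-titled, T-DXd-titled), and all 6 treated libraries were also compared with PBS together.

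Small leucine-rich proteoglycans are secreted proteins built from leucine-rich repeats, most of which carry chondroitin, dermatan or keratan sulfate chains. They coat collagen fibrils, set fibril width and spacing, and bind growth factors of the TGF-β family and several cell surface receptors. In carcinomas they are known mainly as products of fibroblasts, and asporin, which binds collagen through its repeats and carries a run of aspartate residues, is the member whose relation to HER3 the study addressed.

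Counts were made against the human genome, and removal of mouse reads is not given in the sources used here, so whether a read came from PC3 or from the host was not determined. Levels are given as CPM, counts scaled to TMM-adjusted library sizes, with group means ± SD (n = 3). Library totals lay between 54481702 and 125538606 counts, the 3 PBS libraries being the deepest. P-DXd-titled replicate 2 stood apart in skeletal muscle genes. Without it ASPN, BGN, OMD and ECM2 remained called in the P-DXd-titled libraries and PODN did not, and the members' values there are given with the counts of the family. A gene was called higher or lower at a Benjamini-Hochberg adjusted p at or below 0.05 in edgeR's quasi-likelihood test over all genes tested and a fold change of at least 1.5. In bulk tissue, a change in the number of cells of a type and a change in RNA per cell cannot be told apart.

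Compared per length, as CPM per kb of exon, the level of BGN was the highest of the 10 genes, with a mean of 14.5 CPM per kb over 9 libraries, and ASPN was next at 10.2 CPM per kb. BGN was above ASPN in 9 of 9 libraries, and the libraries of the 2 genes did not overlap within any of the 3 groups. ECM2 followed at 1.29 CPM per kb, below ASPN in all 9 libraries. The next 5 genes lay close together, with mean levels of 0.474 CPM per kb for FMOD, 0.280 for OMD, 0.274 for LUM, 0.254 for PODN and 0.221 for OGN. Their order was not the same in every group. OMD lay below LUM in PBS (0.0105 to 0.0451 against 0.161 to 0.438 CPM per kb). It lay above LUM in the T-DXd-titled libraries (0.394 to 0.602 against 0.186 to 0.268). LUM lay above PODN in PBS and below it in the T-DXd-titled libraries, without overlap in either. In the P-DXd-titled libraries neighbours among these 5 overlapped. PRELP stood at 0.123 and overlapped OGN in 2 groups, and DCN had the lowest mean, at 0.0356 CPM per kb, below PRELP in 9 of 9 libraries. Lumican and decorin, which are among the most abundant proteoglycan transcripts of dermal and stromal fibroblasts, were thus among the genes with few reads in these tables. Counts were made against the human genome and the origin of reads was not determined. The order therefore need not be that of transcript abundance in host cells. The plot of levels per length shows the gap between the upper 2 genes and the rest.

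**Figure D1:**
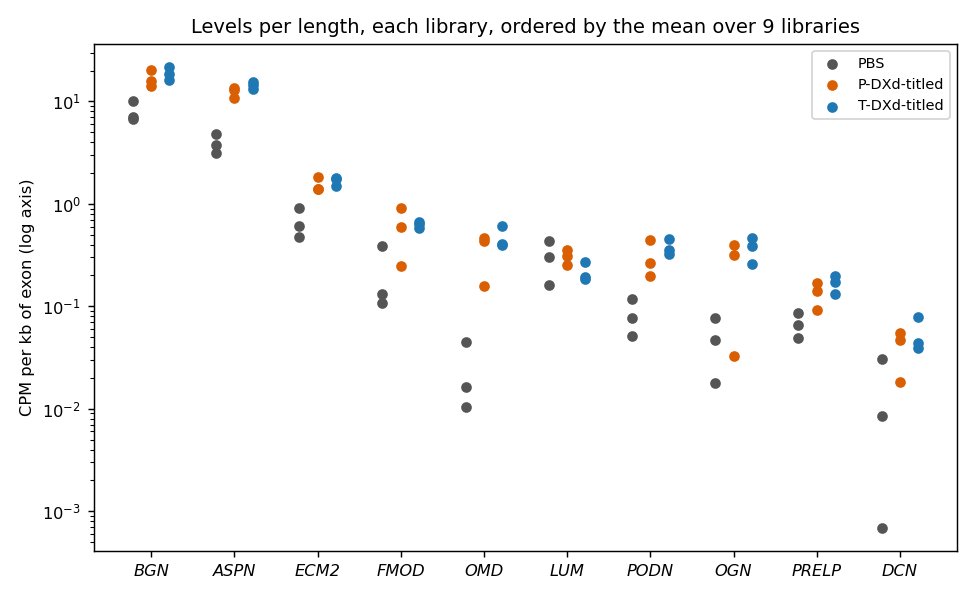
Level of each gene in CPM per kb of exon on a log axis, 1 point per library, coloured by group (3 libraries each) and ordered by the mean over 9 libraries. BGN (mean 14.5) and ASPN (10.2) lie above ECM2 (1.29), and DCN has the lowest mean (0.0356) with all annotated exons as length.

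ASPN was higher in both treated groups than in PBS xenografts, by more than 3-fold. ASPN (ENSG00000106819.7) is listed on chromosome 9 from 95218487 to 95244788, coordinates as the tables give them, with no build named there. In PBS libraries 1050, 1175 and 865 reads gave 11.9, 9.17 and 7.70 CPM. In P-DXd-titled libraries 2698, 1437 and 2217 reads gave 32.1, 26.4 and 33.7 CPM, and in the T-DXd-titled libraries 2757, 2448 and 2319 reads gave 37.98, 32.9 and 35.3 CPM. Every treated library was above every PBS library, although the PBS libraries were deeper. The mean level was 9.60 ± 2.15 CPM in PBS, 30.7 ± 3.87 in the P-DXd-titled and 35.4 ± 2.52 in the T-DXd-titled libraries (SD, n = 3 each). ASPN rose by a log2 fold change of 1.70 (SE 0.19, adjusted p = 0.00199) in the P-DXd-titled and of 1.89 (SE 0.17, adjusted p = 0.000702) in the T-DXd-titled libraries against PBS. With all 6 treated libraries together the rise was 1.79 (SE 0.16, adjusted p = 1.09e-05), or 3.45-fold. ASPN remained called in every alternative run, including the test against a 1.5-fold change (edgeR's glmTreat, adjusted p = 0.00707, 0.00222 and 8.06e-05 for P-DXd-titled, T-DXd-titled and both), with log2 fold changes from 1.55 to 2.07 over other scalings, DESeq2, the replicate block and leaving out libraries. Leaving out P-DXd-titled replicate 2, the P-DXd-titled log2 fold change was 1.80 (adjusted p = 0.00973). The paper scored Aspn in the stroma of its xenografts by RNA in situ hybridization, a measure unlike reads of whole tumor tissue. It describes conjugate-treated tumors as varied in their Aspn-positive stromal cells, which were reduced in some. How the 2 measures relate was not tested.

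ASPN lies in a run of 4 family members on chromosome 9, in the order OGN, OMD, ASPN and ECM2 by listed position, and all 4 rose when both conjugates were compared with PBS. The whole run lies within the span of CENPP, a centromere protein gene listed from 95087766 to 95382815, which in GENCODE v44 is on the opposite strand and shares 0 bases of exon with any of the 4. CENPP fell from 7.93 ± 0.97 CPM in PBS to 4.97 ± 0.288 in the P-DXd-titled and 5.46 ± 0.338 in the T-DXd-titled libraries (log2 fold change of -0.60 for both conjugates, adjusted p = 0.00183). It thus moved opposite to the genes it spans. Whether strand was used in counting is not given in the sources used here.

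The human upstream sequences of 3 of these 4 neighbours are shown because all 4 rose with both conjugates and sit side by side. They are the 250 bases before a RefSeq transcript start on GRCh38.p14, all on the minus strand and written 5′ to 3′, at chr9:92482507-92482756 for ASPN, chr9:92404700-92404949 for 1 of 2 OGN starts and chr9:92535991-92536240 for ECM2. Capitals mark matches on either strand to the motif TATAAA of the TATA box, to the E-box motif CANNTG or to the AP-1 motif TGANTCA, and no matches overlap here.
ASPN: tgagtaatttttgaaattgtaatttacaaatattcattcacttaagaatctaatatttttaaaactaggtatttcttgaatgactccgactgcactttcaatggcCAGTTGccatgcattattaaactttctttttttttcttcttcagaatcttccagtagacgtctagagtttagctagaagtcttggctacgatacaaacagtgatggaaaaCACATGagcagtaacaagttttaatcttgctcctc
OGN: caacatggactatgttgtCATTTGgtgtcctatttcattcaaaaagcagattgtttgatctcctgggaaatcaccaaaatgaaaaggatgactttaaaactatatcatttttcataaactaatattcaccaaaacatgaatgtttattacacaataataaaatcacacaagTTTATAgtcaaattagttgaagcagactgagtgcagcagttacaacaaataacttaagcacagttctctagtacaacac
ECM2: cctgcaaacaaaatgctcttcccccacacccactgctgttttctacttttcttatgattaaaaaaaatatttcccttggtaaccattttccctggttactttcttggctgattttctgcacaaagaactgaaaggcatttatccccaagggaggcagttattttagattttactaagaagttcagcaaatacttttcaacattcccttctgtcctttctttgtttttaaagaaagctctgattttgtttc
ASPN had 2 E-box matches, OGN had 1 E-box match and 1 TATA box match that begins 79 bases before the start, and ECM2 had no match to any of the 3 motifs. Of 35116 RefSeq promoters searched over the same 250 bases before the start, 61.8% held an E-box match, 10.7% a TATA box match and 6.57% an AP-1 match. A match describes letters only. The sequences are human, and where the reads came from was not determined.

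OMD, a keratan sulfate proteoglycan best known from bone, had the largest fold change of the 10 genes. OMD (ENSG00000127083.7, chromosome 9, 95176527 to 95186743) had 4, 25 and 8 reads in PBS libraries, which gave 0.0454, 0.195 and 0.0712 CPM. It had 167, 37 and 123 reads in the P-DXd-titled libraries and 189, 129 and 112 in the T-DXd-titled libraries, at 1.99, 0.679 and 1.87 CPM and at 2.60, 1.74 and 1.71 CPM. No treated library reached down to the PBS range, and P-DXd-titled replicate 2 was the lowest of the treated. OMD rose by a log2 fold change of 3.82 (SE 0.67, adjusted p = 0.00716) in the P-DXd-titled and 4.21 (SE 0.54, adjusted p = 0.00194) in the T-DXd-titled libraries. Its size rested on few PBS reads: without PBS replicate 2, which held 25 of them, the log2 fold change for both conjugates was 4.86, against 4.02 with all libraries (4.65 for P-DXd-titled and 5.05 for T-DXd-titled without it).

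OGN, also called mimecan, which takes part in collagen fibril assembly, rose in the T-DXd-titled libraries. OGN (ENSG00000106809.6, chromosome 9, 95146249 to 95166978) had 27, 24 and 8 reads in PBS, 11, 69 and 105 in the P-DXd-titled and 112, 139 and 68 in the T-DXd-titled libraries. These were 0.307, 0.187 and 0.0712 CPM in PBS, 0.131, 1.27 and 1.60 CPM in the P-DXd-titled and 1.54, 1.87 and 1.04 CPM in the T-DXd-titled libraries. P-DXd-titled replicate 1 lay inside the PBS range, and the other 5 treated libraries lay above it. The log2 fold change was 2.99 (SE 0.54, adjusted p = 0.00575) for T-DXd-titled and 2.42 (SE 0.91, adjusted p = 0.0756) for the P-DXd-titled libraries, the latter not called. It was called in the P-DXd-titled comparison without P-DXd-titled replicate 1 (2.94, adjusted p = 0.0299) and without PBS replicate 1 (2.92, adjusted p = 0.0401), and by DESeq2 with all libraries (2.42, adjusted p = 0.0188). Fitting all 9 libraries at once in edgeR also called it there (2.40, adjusted p = 0.0332). With both conjugates together OGN rose by 2.73 (SE 0.73, adjusted p = 0.00895).

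ECM2, an extracellular matrix protein with leucine-rich repeats, had the third highest level per length. ECM2 (ENSG00000106823.8, chromosome 9, 95256365 to 95298937) was at 2.33, 3.01 and 4.45 CPM in PBS, at 6.81, 6.86 and 8.93 CPM in the P-DXd-titled and at 8.68, 7.36 and 8.74 CPM in the T-DXd-titled libraries. The treated libraries did not overlap PBS. ECM2 rose by a log2 fold change of 1.22 (SE 0.28, adjusted p = 0.0171) in the P-DXd-titled and 1.34 (SE 0.26, adjusted p = 0.00740) in the T-DXd-titled libraries. The P-DXd-titled call was lost without PBS replicate 2 (1.15, adjusted p = 0.0599) and without P-DXd-titled replicate 3 (1.08, adjusted p = 0.0737).

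**Figure D2:**
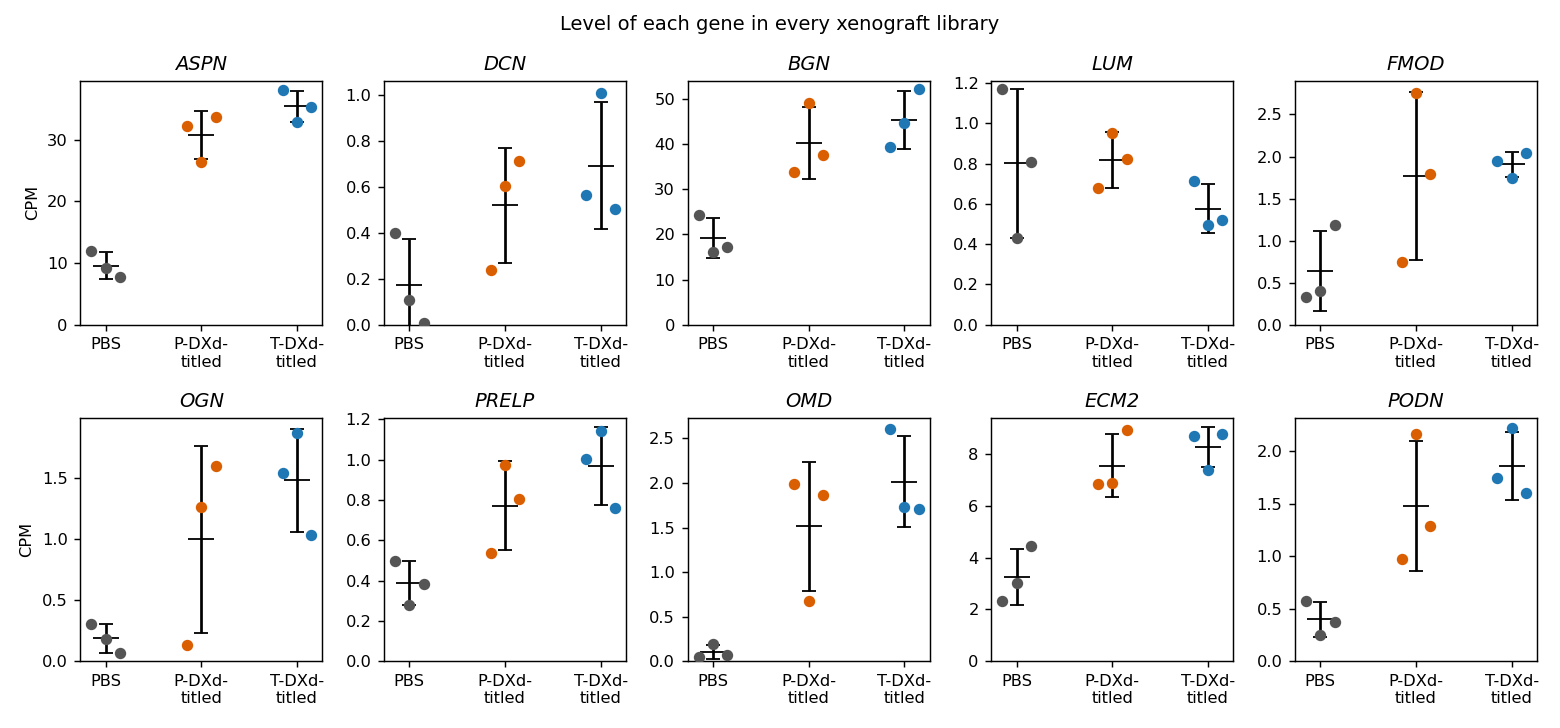
Level of each gene in CPM in every library, 3 per group, with the mean and SD of the group in black, each panel starting at 0. ASPN, BGN, OMD, ECM2, PODN and PRELP have every treated library above every PBS library, whereas P-DXd-titled replicate 1 (left point of its group) lies within the PBS range for OGN.

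BGN, which carries chondroitin or dermatan sulfate chains and can signal through Toll-like receptors, rose by a little over 2-fold. BGN (ENSG00000182492.11, chromosome X, 152760397 to 152775012) was at 24.3, 16.1 and 17.1 CPM in PBS, at 33.9, 49.1 and 37.6 CPM in the P-DXd-titled and at 39.2, 44.6 and 52.1 CPM in the T-DXd-titled libraries. The lowest treated library was above the highest PBS library. BGN rose by a log2 fold change of 1.08 (SE 0.21, adjusted p = 0.00945) in the P-DXd-titled and 1.24 (SE 0.19, adjusted p = 0.00321) in the T-DXd-titled libraries, and it remained called in every alternative run except the test against a 1.5-fold change for P-DXd-titled (edgeR's glmTreat, adjusted p = 0.0721). HAUS7, a subunit of the augmin complex, has a listed span that overlaps BGN from the opposite strand with 0 shared exon bases. Its mean level was low, at 0.847 ± 0.408 CPM in PBS, 0.167 ± 0.142 in the P-DXd-titled and 0.246 ± 0.151 in the T-DXd-titled libraries.

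DCN, the family member that binds collagen, TGF-β and EGFR, was not called in any comparison by edgeR's test. DCN (ENSG00000011465.12, chromosome 12, 91539025 to 91576900) had 35, 14 and 1 reads in PBS, 20, 33 and 47 in the P-DXd-titled and 41, 75 and 33 in the T-DXd-titled libraries. PBS replicate 1, at 0.398 CPM, lay above P-DXd-titled replicate 1, at 0.238 CPM, so these groups overlapped, and the 3 T-DXd-titled libraries, at 0.503 to 1.01 CPM, lay above all 3 PBS libraries. The log2 fold change was 1.63 (95% interval -0.69 to 3.96, adjusted p = 0.231) for P-DXd-titled, 2.05 (-0.16 to 4.27, adjusted p = 0.117) for T-DXd-titled and 1.85 (0.15 to 3.55, adjusted p = 0.0613) for both. Without PBS replicate 1 it was called in each, at 3.07, 3.48 and 3.29 (adjusted p = 0.0249, 0.000926 and 0.00294), and leaving out P-DXd-titled replicate 1 gave a call for both conjugates (2.02, adjusted p = 0.0491). DESeq2 called DCN for both conjugates with all libraries (1.85, adjusted p = 0.0229).

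FMOD, PRELP and LUM bind fibrillar collagens, the first and the last with keratan sulfate chains, and their values differed. FMOD (ENSG00000122176.10, chromosome 1, 203309756 to 203320617) was at 0.329, 0.398 and 1.18 CPM in PBS, at 0.750, 2.75 and 1.79 CPM in the P-DXd-titled and at 1.94, 1.75 and 2.04 CPM in the T-DXd-titled libraries. PBS replicate 3 lay above P-DXd-titled replicate 1, while all T-DXd-titled libraries lay above PBS. FMOD rose in the T-DXd-titled libraries (log2 fold change 1.58, SE 0.50, adjusted p = 0.0409) and had a log2 fold change of 1.47 (SE 0.65, adjusted p = 0.115) in the P-DXd-titled libraries. Without PBS replicate 3 these were 2.39 (adjusted p = 0.00313) and 2.27 (adjusted p = 0.0323, called), and for both conjugates 2.32 against 1.52 with all libraries. The T-DXd-titled call was lost without PBS replicate 2 (1.33, adjusted p = 0.113) and without T-DXd-titled replicate 1, 2 or 3 (adjusted p = 0.106, 0.0925 and 0.114). The call for both conjugates (adjusted p = 0.0203) was lost without PBS replicate 2 (1.26, adjusted p = 0.0801).

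PRELP, which anchors basement membranes to connective tissue, was higher in every treated library than in every PBS library at low counts. PRELP (ENSG00000188783.5, chromosome 1, 203444956 to 203460480) was at 0.500, 0.281 and 0.383 CPM in PBS, at 0.536, 0.973 and 0.806 CPM in the P-DXd-titled and at 1.01, 1.14 and 0.761 CPM in the T-DXd-titled libraries. The gap was narrow, between 0.500 CPM in PBS replicate 1 and 0.536 CPM in the P-DXd-titled replicate 1. PRELP rose in the T-DXd-titled libraries (log2 fold change 1.33, SE 0.34, adjusted p = 0.0199) and with both conjugates together (1.17, SE 0.32, adjusted p = 0.00960), and was not called for P-DXd-titled (1.01, SE 0.40, adjusted p = 0.0863). Fitting all 9 libraries at once in edgeR did call it for P-DXd-titled (0.99, adjusted p = 0.0457). The T-DXd-titled call was lost on leaving out PBS replicate 2, or replicate 1 or 2 of the T-DXd-titled group (adjusted p = 0.0645, 0.0680 and 0.0827).

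LUM was the only one of the 10 genes whose mean in the treated libraries was below PBS, and it was not called. LUM (ENSG00000139329.4, chromosome 12, 91496406 to 91505608) was at 1.17, 0.429 and 0.810 CPM in PBS, at 0.679, 0.954 and 0.821 CPM in the P-DXd-titled and at 0.716, 0.498 and 0.518 CPM in the T-DXd-titled libraries. The PBS libraries spanned every treated library. The log2 fold change was 0.04 (95% interval -0.94 to 1.03, adjusted p = 0.942) for P-DXd-titled and -0.47 (-1.46 to 0.53, adjusted p = 0.398) for the T-DXd-titled libraries. LUM and DCN lie side by side on chromosome 12.

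PODN, which inhibits smooth muscle proliferation and migration, rose about 4-fold. PODN (ENSG00000174348.9, chromosome 1, 53527854 to 53551174) was at 0.579, 0.250 and 0.374 CPM in PBS, at 0.977, 2.17 and 1.29 CPM in the P-DXd-titled and at 1.75, 2.22 and 1.60 CPM in the T-DXd-titled libraries. The groups did not overlap with PBS. PODN rose by a log2 fold change of 1.90 (SE 0.46, adjusted p = 0.0199) in the P-DXd-titled and 2.22 (SE 0.37, adjusted p = 0.00443) in the T-DXd-titled libraries. The P-DXd-titled call was lost without PBS replicate 2 (1.63, adjusted p = 0.0666), without P-DXd-titled replicate 2 (1.53, adjusted p = 0.0661) and without P-DXd-titled replicate 3 (1.99, adjusted p = 0.0597).

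Counted over the family, 5 of the 10 genes rose and 0 fell in the P-DXd-titled libraries, where 11.2% of 14945 genes tested were called higher and 13.8% lower. In T-DXd-titled libraries 8 of 10 rose and 0 fell, against 13.1% of 14915 genes called higher and 15.5% lower. With both conjugates together 8 of 10 rose and 0 fell, against 15.2% of 15070 genes called higher and 17.1% lower. By the same edgeR test 7, 8 and 9 of the 10 had an unadjusted p under 0.05, all of them higher than PBS, and DESeq2 called 6, 8 and 9 higher and 0 lower. The median log2 fold change of the 10 genes was 1.55, 1.73 and 1.65, beside a median over all genes tested of -0.01, -0.02 and -0.01. The comparisons share the 3 PBS libraries. The members were chosen with earlier results of these data known, so these counts beside the shares are a description and not a test. Counts for the P-DXd-titled libraries fell to 3 without PBS replicate 2 and without P-DXd-titled replicate 3, and were 4 without P-DXd-titled replicate 2, where 7.08% of genes were called higher. Without that library the log2 fold change against PBS was 0.92 for BGN, 4.18 for OMD, 1.28 for ECM2, 1.00 for FMOD (adjusted p = 0.322), 0.81 for PRELP (adjusted p = 0.231), 2.21 for OGN (adjusted p = 0.172) and 1.51 for DCN (adjusted p = 0.377), the last 4 not called with or without it. The members' summed level was 30.2 to 41.9 CPM in PBS, 78.1 to 91.7 CPM in the P-DXd-titled and 95.1 to 104 CPM in the T-DXd-titled libraries, so the groups did not overlap. ASPN held 23.9% to 30.4% of the members' reads in PBS, 28.7% to 41.1% in the P-DXd-titled and 33.9% to 39.6% in the T-DXd-titled libraries. The plot of changes shows the narrow intervals of ASPN and BGN beside the wide ones of DCN and OGN.

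**Figure D3:**
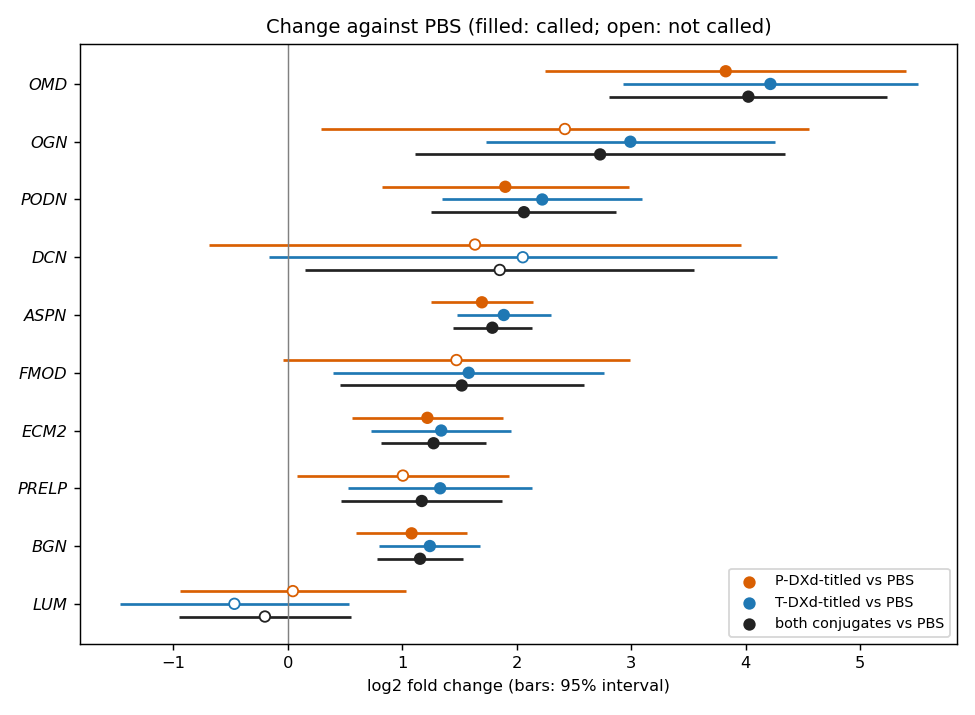
Log2 fold change of each gene against PBS in edgeR, for P-DXd-titled (orange), T-DXd-titled (blue) and both conjugates (black), with 95% intervals. Filled points were called and open points were not. OMD has the highest estimates (3.82 to 4.21) and LUM spans 0.

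The 2 conjugate groups were compared with each other directly at the same labelled dose. None of the 10 genes was called in this comparison by edgeR's quasi-likelihood test, in which 0.0273% of 14653 genes were called in either direction, or by DESeq2, and 0 of 10 had an unadjusted p under 0.05 by either tool. The log2 difference of P-DXd-titled from T-DXd-titled libraries was -0.20 for ASPN (95% interval -0.43 to 0.03, unadjusted p = 0.0786, adjusted p = 1.00) and -0.17 for BGN (-0.49 to 0.14). The interval was wider for genes with few reads, from -1.99 to 0.81 for OGN and from -0.23 to 1.22 for LUM. A difference of 1.5-fold thus lay outside the interval for ASPN and inside it for OGN and LUM.

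Of the other genes of the family, tsukushi (TSKU), a secreted regulator of BMP, Wnt and TGF-β signaling, rose and chondroadherin (CHAD), a cartilage matrix protein, fell. TSKU was at 122 ± 27.3 CPM in PBS, 215 ± 37.2 in the P-DXd-titled and 214 ± 10.4 in the T-DXd-titled libraries (log2 fold change of 0.83, adjusted p = 0.0200, and of 0.81, adjusted p = 0.00952). CHAD went from 1.46 ± 0.321 CPM to 0.510 ± 0.204 and 0.561 ± 0.0354 CPM (-1.50, adjusted p = 0.0289, and -1.38, adjusted p = 0.00891). PODNL1 and CHADL were not called (0.03 and 0.28 for both conjugates, adjusted p = 0.938 and 0.743). OPTC was listed at 0 to 19 reads and was not tested, and KERA, EPYC and NYX were not analysed here.

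Among 32 tested enzymes and transporters that build the glycosaminoglycan chains of these proteins, 10 rose and 3 fell with both conjugates against PBS, and 19 were not called. Of all genes tested in that comparison, 15.2% were called higher and 17.1% lower. B3GNT7, which extends keratan sulfate chains, rose from 0.548 ± 0.265 CPM to 1.96 ± 0.144 and 2.07 ± 0.343 CPM in the P-DXd-titled and T-DXd-titled libraries (log2 fold change 1.87, adjusted p = 0.000611). CSGALNACT1, which starts chondroitin sulfate chains, rose by 1.27 (adjusted p = 0.00711). CHSY3, a chondroitin synthase, fell by 1.54 on the log2 scale (adjusted p = 0.000649) and DSEL, a dermatan sulfate epimerase, fell by 0.82 (adjusted p = 9.22e-05). The median log2 fold change of this list was 0.30.

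Of 26 genes for the collagens that these proteins bind and for their processing, 7 rose and 4 fell with both conjugates. The shares over all genes tested were again 15.2% called higher and 17.1% lower. COL14A1, a fibril-associated collagen, rose by a log2 fold change of 1.90 (adjusted p = 0.00966) and COL3A1, a fibrillar collagen of soft stroma, by 1.37 (adjusted p = 0.00532). COL6A3, a chain of the beaded filaments of collagen VI, fell from 160 ± 9.18 CPM in PBS to 14.9 ± 2.79 and 11.7 ± 0.434 CPM (-3.59, adjusted p = 2.33e-07), and LOXL2, a collagen cross-linking enzyme, fell by 1.78 on the log2 scale (adjusted p = 2.95e-05). Collagen genes thus moved in both directions, with a median log2 fold change of 0.12.

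Of 12 proteases known to cleave small leucine-rich proteoglycans, 4 rose and 4 fell with both conjugates. Beside them 15.2% of all genes tested were called higher and 17.1% lower. MMP7 rose from 4.26 ± 3.06 CPM in PBS to 49.9 ± 9.64 and 51.3 ± 2.86 CPM (log2 fold change 3.56, adjusted p = 0.000203) and MMP2 rose by 1.79 (adjusted p = 0.000717). MMP9 and ADAMTS1 fell (log2 fold changes of -1.96, adjusted p = 0.00446, and -3.36, adjusted p = 0.00291). Of 22 receptors and growth factors reported to bind members of the family, 6 rose and 2 fell, beside the same shares of all genes. CTGF, a matricellular growth factor, rose by 1.68 (adjusted p = 6.19e-06), while the receptor IGF1R and the matricellular protein WISP1 fell (-0.94, adjusted p = 0.000213, and -1.77, adjusted p = 0.00580). ERBB2, which encodes HER2, rose from 105 ± 36.0 CPM to 314 ± 49.8 and 320 ± 2.19 CPM (1.60, adjusted p = 9.74e-05). ERBB3, which encodes HER3, rose with both conjugates together, from 55.6 ± 24.7 CPM to 98.6 ± 7.28 and 91.5 ± 3.81 CPM (0.77, adjusted p = 0.0192), and was not called in either conjugate group alone (adjusted p = 0.0860 and 0.117). EGFR, at 538 ± 89.2 CPM in PBS, 390 ± 41.7 in the P-DXd-titled and 383 ± 19.4 in the T-DXd-titled libraries, was below the fold required (-0.48, adjusted p = 0.00303).

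Markers of host cell types were examined by list, beside the 15.2% of all genes called higher and 17.1% called lower with both conjugates. Of 21 tested fibroblast markers, 12 rose and 0 fell with both conjugates, led by MFAP5 (log2 fold change 2.302, adjusted p = 0.000627) and OLFML3 (2.09, adjusted p = 4.10e-06), both extracellular matrix proteins. For P-DXd-titled 6 of 21 rose and for T-DXd-titled 11 of 21, where 11.2% and 13.1% of all genes did. Without P-DXd-titled replicate 2, 1 of 22 rose for P-DXd-titled, where 7.08% of all genes did. With both conjugates 11 of 21 then rose, where 15% of all genes did. The summed fibroblast level was 436 to 457 CPM in PBS, 515 to 660 CPM in the P-DXd-titled and 627 to 638 CPM in the T-DXd-titled libraries. The next markers were picked after their values were seen. THY1 and LRRC15 stayed below 0.2 CPM in each group mean. CDH11, ANTXR1, FBLN1 and SFRP2 made up 74.6% of the list's reads in PBS, 64.4% in the P-DXd-titled and 59.1% in the T-DXd-titled libraries. Single levels of the other listed fibroblast markers are not given here. Of 8 macrophage markers tested 4 rose, among them C1QB and AIF1, and 2 fell, EMR1 and MSR1, with a summed level of 16.3 to 19.0 CPM in PBS, 24.6 to 30.2 in the P-DXd-titled and 29.9 to 36.4 in the T-DXd-titled libraries. Of 10 endothelial markers 3 rose, among them EGFL7 and TEK, 0 fell and 5 had a negative log2 fold change (median 0.20), with sums of 30.8 to 40.4, 43.7 to 60.6 and 59.1 to 61.6 CPM. EGFL7 and TEK were not called for P-DXd-titled (adjusted p = 0.171 and 0.0722). The part of these cells in the members' rise was not tested.

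The other marker lists are given with the same comparison. Of 10 pericyte and smooth muscle markers 3 rose, among them DES and RGS5, and 4 fell, among them CSPG4 and ABCC9, with a median log2 fold change of -0.32. Of 4 tested adipocyte markers 2 rose, CFD and LPL, with a summed level of 6.94 to 8.82 CPM in PBS and 36.7 to 56.0 CPM over the treated libraries. Of 6 cartilage, tendon and bone markers CILP rose, from 0.520 ± 0.113 CPM in PBS to 12.3 ± 3.30 and 14.9 ± 2.04 CPM, and MATN3 fell. All 14 skeletal muscle markers rose with both conjugates (10 of 13 tested for P-DXd-titled and 11 of 14 for T-DXd-titled), and their summed level was 2.48 to 53.8 CPM in PBS, 218 to 284 CPM in the T-DXd-titled libraries and 82.8, 5042 and 281 CPM in the P-DXd-titled libraries, the second of which stood apart. Leaving that library out, 14 of 14 muscle markers were called with both conjugates at a median log2 fold change of 3.40, against 5.55 with it, and 1 of 13 for P-DXd-titled. DES was then at 2.02 for both (3.42 with it) and was not called for P-DXd-titled (1.72, adjusted p = 0.184). Without that library 8 members remained called with both conjugates. Of 10 epithelial markers 6 rose, led by ELF3 and CLDN4, at a summed level of 3275 to 4197 CPM in PBS and 5721 to 6456 CPM over the treated libraries.

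ASPN was next set against other genes of the same library, which does not depend on the normalization. ASPN had 26.1, 21.0 and 17.2 reads per 1000 reads of the 23 listed fibroblast markers in PBS libraries. It had 62.4, 39.99 and 54.6 in the P-DXd-titled and 59.96, 52.5 and 55.4 in the T-DXd-titled libraries. Every treated library was above every PBS library, and the mean log2 ratio was 1.34 higher in the 6 treated than in the 3 PBS libraries, or 2.54-fold (two-sided exact permutation test over 84 divisions, p = 0.0119, the smallest it can give). ASPN itself was already known to be higher in every treated library, so the permutation p-values given here are not independent of that result. The size depended on the genes in the denominator, and whether their reads came from fibroblasts or from PC3 cells was not determined. Without the 4 most abundant markers, an alternative chosen after seeing the data, the difference was 0.77 on the log2 scale, or 1.71-fold (exact permutation p = 0.0119, the smallest possible). Each treated library remained above each PBS library there too.

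CTNNA1, of which PC3 carries a homozygous deletion, was also listed with reads. Its level was 14.96 ± 4.45 CPM in PBS, 22.1 ± 5.47 in the P-DXd-titled and 24.5 ± 0.606 in the T-DXd-titled libraries. CTNNA1 rose in the T-DXd-titled libraries (log2 fold change 0.72, adjusted p = 0.0277) and with both conjugates together (0.64, adjusted p = 0.0142), and was not called for P-DXd-titled (0.58, adjusted p = 0.114). Without P-DXd-titled replicate 2 it was below the fold required with both conjugates (0.58). Which cells these reads came from was not tested.

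**Figure D4:**
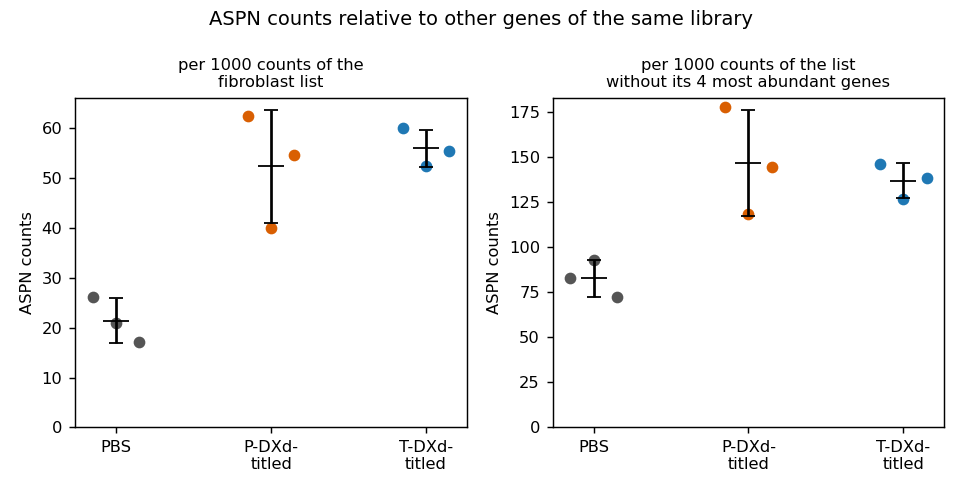
ASPN reads per 1000 reads of the 23 fibroblast markers (left) and of the 19 markers left without the 4 most abundant (right), 1 point per library with group mean and SD, axes from 0. The treated libraries lie above PBS in both panels, by 2.54-fold and 1.71-fold.

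Genes most like ASPN over the 9 libraries, in the size of their changes as well as the direction, were sought next. The search covered 12670 genes with a mean of at least 1 CPM and used the root mean square difference of centred log2 CPM. The closest were PIANP (0.189), ABCA1 (0.195), HSD11B1 (0.204), LPCAT2 (0.208) and PANX2 (0.214). ABCA1 exports cholesterol from cells and HSD11B1 regenerates active glucocorticoid. ABCA1 was at 14.01 ± 3.56 CPM in PBS, 55.2 ± 2.31 in the P-DXd-titled and 58.5 ± 4.96 in the T-DXd-titled libraries. Of the family, BGN was closest to ASPN (0.397, rank 189), followed by ECM2 (0.443, rank 315) and PODN (0.453, rank 342). FMOD was at 0.778 (rank 3890) and OMD, beside ASPN on chromosome 9, at 1.15 (rank 10460). The measure is not scaled, so the larger rise of OMD adds to its difference from ASPN. With both conjugates the log2 fold change was 4.02 for OMD and 1.79 for ASPN, and both were higher in every treated library. The remaining members, among them OGN at 1.08, had a mean below 1 CPM and were not ranked.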

How the data were processed

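RNA-Seq of 9 PC3 xenografts was analysed, with groups taken from sample titles. Libraries were Illumina TruSeq mRNA. The authors' methods state adapter trimming by Cutadapt, alignment by STAR and gene-level counting by featureCounts, and the deposited values are the resulting unnormalized counts. The methods name GRCh38, but of 15869 identifiers also in GENCODE v44 only 44 had the listed coordinates, so gene coordinates are given as listed. The count tables held 16098 and 16114 genes, with 16008 in both, and genes with fewer reads were not analysed here. The number of unused columns of per-sample values was 0.

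Counts were tested with edgeR 4.0.16 in R 4.3.3 (TMM, filterByExpr, two-sided quasi-likelihood F test, Benjamini-Hochberg adjustment over all genes tested), each conjugate on 6 libraries and both on 9. CPM are TMM-scaled counts. CPM per kb used the union of GENCODE v44 exons. SE is the log2 fold change divided by the square root of F. Libraries of a group differed by a chi-square of 18.0 to 412 per gene, so none were duplicates. On simulated data with 200 genes changed 3-fold, the scripts recovered 148 (P-DXd-titled against PBS, 14791 genes), 163 (T-DXd-titled, 14748 genes), 182 (both, 14910 genes) and 179 (between the conjugate groups, 14523 genes), with 2, 15, 7 and 11 false calls in that order. The changed genes were drawn only from those above a minimum expected count, so recovery of genes with fewer reads was not measured. Total counts ranged from 54481702 to 125538606 per library. Animals were coded separately, so p-values measure the spread between these 9 tumors.

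Named genes were the 10 members, other family genes, genes that overlap a member, the 5 genes most like ASPN, CTNNA1, the ERBB receptors and, per list, up to 2 called genes with the largest rise and up to 2 with the largest fall at a mean of at least 10 counts. Marker genes given beside them by level (THY1, LRRC15, CDH11, ANTXR1, FBLN1 and SFRP2) were chosen after their values were seen. The members and lists were chosen with earlier results of these data known. Alternatives were other size factors, DESeq2 1.42.0, other filters and thresholds, 1 fit of all 9 libraries, a replicate block and leaving out each library. Promoter sequences are from RefSeq on GRCh38.p14, in which 7 of the 10 members had an entry. A result that rests on an item withheld here is not reported. Columns of the authors' own comparisons were not used.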

Additional observations from a re-analysis of the deposited data

How the results depend on the processing

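Of the counts of members called, 1 setting besides the leave-one-out fits moved one by more than 1.5 times: 2 genes were called for P-DXd-titled against PBS when edgeR tested against a 1.5-fold change (glmTreat), namely ASPN and OMD, instead of 5. That test dropped FMOD and PRELP from the 8 called in the other comparisons with PBS, and a filter of at least 10 counts in every library left OMD, OGN and DCN untested. Leaving out 1 library in turn gave 3 to 7 called members for P-DXd-titled, 6 to 9 for T-DXd-titled, 7 to 9 for both conjugates and 0 to 0 for P-DXd-titled against T-DXd-titled. Fitting all 9 libraries at once in edgeR called 7 members for P-DXd-titled, OGN (adjusted p = 0.0332) and PRELP (adjusted p = 0.0457) being added. It called 8 members for T-DXd-titled and 0 between the conjugate groups. A replicate block on the digit in the animal code gave 5, 8, 8 and 0 called members, as without it, and changed no count of members. That digit is shared by several animals of a group, and the deviations of same-digit libraries of different groups from their group means correlated at -0.11 to 0.11 over 13 pairs, against -0.20 to 0.17 over 14 pairs with different digits. LUM, called in no alternative, changed direction for P-DXd-titled without PBS replicate 2 (-0.28) and without P-DXd-titled replicate 2 (-0.07), in a range up to 0.41, and for both conjugates without PBS replicate 1 (0.18), in a range down to -0.51. The difference of FMOD between conjugates changed direction without P-DXd-titled replicate 1 (0.25), in a range down to -0.60; the cause was not tested. With the longest transcript as length, ECM2 was at 1.99 and DCN at 0.0673 CPM per kb at unchanged ranks, while PODN, at 0.383, passed OMD and LUM. The ASPN to fibroblast ratio stayed higher in treated libraries in all 9 leave-one-out values (exact permutation p = 0.0179 to 0.0357, the smallest those designs allow). DCN and LUM in place of the list gave 1.27 (exact permutation p = 0.0238), with overlap between PBS replicate 2, at 17.0 ASPN reads per read, and P-DXd-titled replicate 2, at 16.9. Genes with few reads in PBS (OMD, OGN, DCN) are limited by that depth.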
